A study of Mus musculus with 6 samples.

Results

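The genes described here are 9 members of the dual-specificity phosphatase family that remove phosphate from MAP kinases or are grouped with those enzymes: Dusp1, Dusp4, Dusp5, Dusp6, Dusp7, Dusp8, Dusp10, Dusp14 and Dusp16. They were chosen by name as family members, at a time when earlier results of these data were known, and are 9 of 54532 genes in the deposited count table. All 9 passed the filter on low counts, as did 13290 of the 24708 genes with a count in any library. RNA sequencing was done on wild-type (WT) L929 cells, an established mouse fibroblast line that has long been used to study killing by tumour necrosis factor. The treated group was 3 libraries of cells that received 10 ng/ml TNF-α together with 1 µg/ml actinomycin D for 12 h, and the control group was 3 libraries of L929 cells whose treatment label is control. Both groups were grown in DMEM with 10% fetal bovine serum. Actinomycin D intercalates into DNA and stops RNA synthesis, and TNF-α is a cytokine that drives inflammation and, when new transcription is blocked, cell death. No library received either agent alone, so what follows belongs to the combination.

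MAP kinases are switched on by phosphate on a threonine and a tyrosine of their activation loop. MAP kinase phosphatases remove both phosphates and so end the signal. Several of their genes are themselves switched on by MAP kinase signalling and give short-lived mRNAs, which makes them feedback inhibitors. They differ in where in the cell they act and in which kinase they prefer. Dusp1, Dusp4 and Dusp5 encode nuclear, inducible enzymes; Dusp6 and Dusp7 encode cytoplasmic enzymes that prefer ERK; Dusp8, Dusp10 and Dusp16 encode enzymes that prefer JNK and p38. Dusp14 encodes a small atypical member without the MAP kinase-binding domain of the others.

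Library totals were 16448477 to 17705511 counts in treated cells and 16056207 to 18036322 counts in control cells. Genes with a count numbered 15705, 17688 and 18849 in treated replicates 1, 2 and 3, against 19219 to 20116 in control libraries. Levels are CPM, counts relative to the library total, scaled by TMM factors, which assume that most genes do not change and which averaged 0.699 in treated libraries and 1.44 in control libraries. Scaling by library size alone moved the median log2 fold change of all genes by −1.04, and holding the summed ribosomal protein genes equal moved it by −2.39. Fold changes are therefore relative to the other genes of the same cells and carry no statement on the amount per cell. Whether the replicates were separate cultures is not stated in the labels. The p-values therefore reflect library-to-library spread alone, some or all of which may be technical. In bulk RNA, fewer cells with a transcript and less transcript per cell cannot be told apart.

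Of the 9 phosphatase genes, 6 fell in treated cells and 1 was higher. Dusp4, Dusp5, Dusp7, Dusp10, Dusp14 and Dusp16 fell, with log2 fold changes of −3.57 (Dusp14) to −1.998 (Dusp5), at a Benjamini-Hochberg adjusted p under 0.05 over all tested genes in edgeR's quasi-likelihood test. Dusp8 rose by 1.31, relative to TMM scaling; it did not pass the test by library size alone and was lower with ribosomal protein genes held equal. Dusp1 and Dusp6 did not pass the test. Among all 13290 tested genes 40.2% were called lower and 34.6% higher, 74.8% in all, so a fall by itself was common, and 6 of 9 is to be read against that share. Of the called genes 46.3% were higher with TMM factors, 22.3% when scaled by library size and 2.21% when scaled by ribosomal protein genes. In the same 6 genes every treated library lay below every control library, as in 42.0% of all tested genes, and in Dusp8 every treated library lay above, as in 35.9%. The median log2 fold change was −2.32 over the 9 genes and −0.18 over all tested genes.

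**Figure D1:**
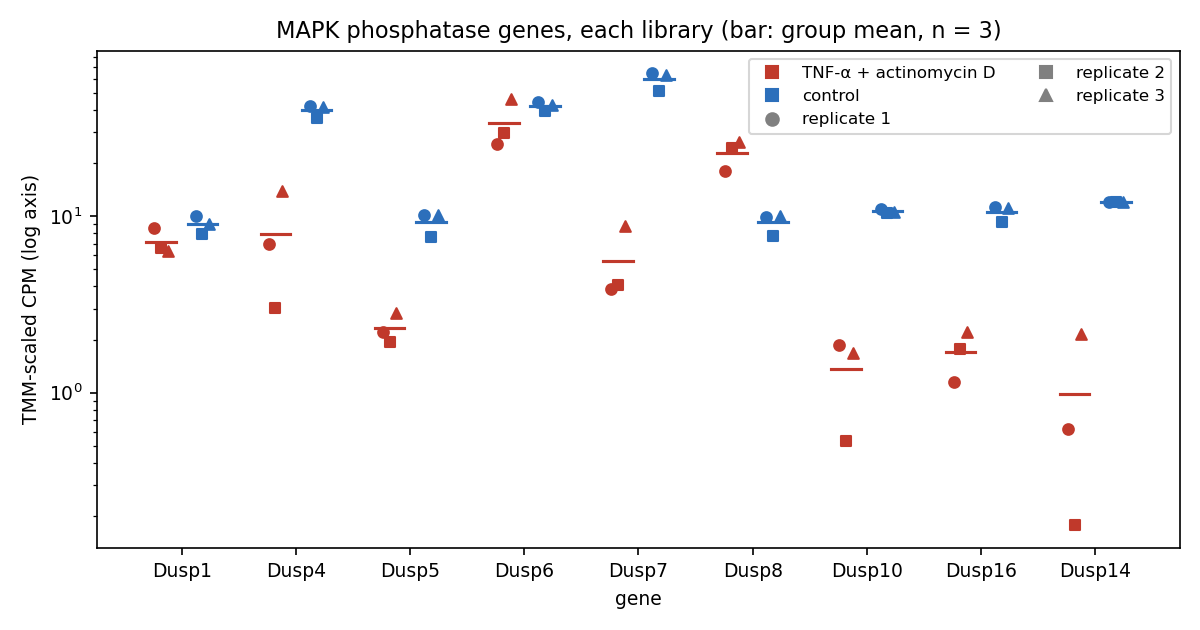
TMM-scaled CPM (log axis) of the 9 phosphatase genes in each library, with treated libraries left of control libraries, symbols for the replicate number and a bar at each group mean (n = 3). The treated points lie below the control points in 6 genes, above them in Dusp8 (a direction that turns with ribosomal protein genes held equal), and overlap them in Dusp1 and Dusp6; in 7 of the 9 genes the highest treated value is replicate 3.

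Summed over the 9 genes, treated libraries held 781, 819 and 1452 counts, against 5230, 4456 and 5362 counts in control libraries. That was 0.0060% of all counts in treated cells and 0.0292% in control cells. As RPKM (TMM-scaled CPM per kilobase of deposited gene length), the sum was 24.9 ± 7.37 in treated cells and 66.2 ± 5.78 in control cells (SD, n = 3 each). The groups did not overlap on any of these sums.

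Among the nuclear, inducible enzymes, Dusp1 (chromosome 17, 26505590 to 26508519, minus strand, in the deposited coordinates, with GRCm38 named as the build) encodes the phosphatase first described as an immediate-early gene, which acts on p38, JNK and ERK. Dusp1 had 8.57, 6.63 and 6.34 CPM in treated replicates 1, 2 and 3, against 10.1, 7.89 and 9.09 CPM in the control replicates. The highest treated library lay above the lowest control library, so the groups overlapped. The log2 fold change was −0.33 ± 0.24 (SE; 95% interval −0.86 to 0.19; edgeR adjusted p = 0.226), and 47.2% of all tested genes had a lower one. Dusp1 was called lower without treated replicate 1 (−0.56, edgeR adjusted p = 0.0326) by library size alone (−1.38) and when ribosomal protein genes were held equal (−2.74).

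Dusp4 (chromosome 8, 34807297 to 34819894, plus strand) encodes a nuclear phosphatase of ERK, JNK and p38. Dusp4 had 6.98, 3.01 and 13.97 CPM in treated libraries, against 42.3, 36.2 and 41.8 CPM in control libraries. Every treated value lay far below every control value, while the treated libraries themselves differed by 4.65-fold. The log2 fold change was −2.32 ± 0.42 (edgeR adjusted p = 0.000495), and −3.04 without treated replicate 3.

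Dusp5 (chromosome 19, 53529109 to 53542431, plus strand) encodes a nuclear phosphatase selective for ERK. Dusp5 had 2.21, 1.94 and 2.82 CPM in treated libraries, against 10.2, 7.60 and 10.2 CPM in control libraries. The groups did not overlap and the treated libraries lay close together. Dusp5 had a log2 fold change of −1.998 ± 0.28 (edgeR adjusted p = 6.39e-05), the smallest of the 6 falls.

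The ERK phosphatases of the cytoplasm parted. Dusp6 (chromosome 10, 99263231 to 99267489, plus strand), a classic feedback gene of the ERK pathway, had 25.6, 29.8 and 46.6 CPM in treated libraries, against 44.8, 39.6 and 43.1 CPM in control libraries. Treated replicate 3 was the highest of all 6 libraries, and the other 2 treated libraries were the lowest. The log2 fold change was −0.32 ± 0.22 (95% interval −0.81 to 0.17; edgeR adjusted p = 0.21). Without treated replicate 3 it was −0.65 and was called lower (edgeR adjusted p = 0.00274). Dusp6 was also called lower without the filter (−0.48, edgeR adjusted p = 0.048), by library size alone (−1.32) and when ribosomal protein genes were held equal (−2.63). The missing call for Dusp6 thus depended on treated replicate 3, on the filter and on the scaling.

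Dusp7 (chromosome 9, 106368632 to 106375724, plus strand) encodes the close relative of Dusp6. Dusp7 had 3.89, 4.07 and 8.86 CPM in treated libraries, against 64.8, 51.4 and 63.7 CPM in control libraries. No other gene of the 9 had as high a mean level in control cells as Dusp7, as CPM or as RPKM. As RPKM the control libraries of Dusp7 overlapped those of Dusp4. The treated and control values of Dusp7 were far apart. Dusp7 had a log2 fold change of −3.41 ± 0.31 (edgeR adjusted p = 3.75e-06), lower than in all but 3.91% of tested genes.

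The JNK and p38 phosphatases also parted. Dusp8 (chromosome 7, 142079490 to 142095843, minus strand), described in brain, heart and other tissues as a JNK and p38 phosphatase, had 18.1, 24.5 and 26.3 CPM in treated libraries, against 9.98, 7.77 and 10.0 CPM in control libraries. All treated libraries lay above all control libraries. The means, 22.9 ± 4.29 CPM in treated cells and 9.26 ± 1.29 CPM in control cells (SD, n = 3 each), differed by 2.48-fold, with a log2 fold change of 1.31 ± 0.22 (edgeR adjusted p = 0.000263). The raw counts were 205, 277 and 344 in treated libraries and 241, 190 and 254 in control libraries, which overlapped, and by library size alone the log2 fold change was 0.29 (edgeR adjusted p = 0.321). With ribosomal protein genes held equal the direction turned, to −1.04.

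Dusp10 (chromosome 1, 184013302 to 184075636, plus strand) encodes a JNK and p38 phosphatase of cytoplasm and nucleus. Dusp10 had 1.85, 0.530 and 1.68 CPM in treated libraries, from 21, 6 and 22 counts, against 11.1, 10.4 and 10.6 CPM in control libraries. The control libraries lay close together and all well above the treated ones. Its log2 fold change was −2.97 ± 0.37 (edgeR adjusted p = 2.88e-05). A gene on the opposite strand, 1700056E22Rik, shares part of the Dusp10 gene body but no exon, and had 14, 15 and 26 counts in treated libraries and 9, 3 and 10 in control libraries. In GENCODE M21, opposite-strand genes share exon sequence with Dusp5 (AC137853.2), with Dusp8 (Gm32786) and with the longer gene model of Dusp1 there (Ergic1). In the deposited coordinates Ergic1 does not overlap Dusp1. Since strand use in counting was not given, reads from the partners of Dusp5 and Dusp8 cannot be told apart from those of the phosphatase gene. Gm32786 itself was given 0 counts in all 6 libraries.

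Dusp16 (chromosome 6, 134715468 to 134792625, minus strand), with a nuclear export signal and a preference for JNK, had 1.15, 1.77 and 2.21 CPM in treated libraries, against 11.3, 9.24 and 11.2 CPM in control libraries. The groups did not overlap. For Dusp16 the log2 fold change was −2.62 ± 0.30 (edgeR adjusted p = 1.47e-05). The treated values rested on 13, 20 and 29 counts.

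The atypical Dusp14 (chromosome 11, 84048041 to 84069261, minus strand), known from T cells as a brake on signalling through TAK1 and its partner TAB1, had 0.618, 0.177 and 2.14 CPM in treated libraries, against 12.1, 12.0 and 12.1 CPM in control libraries. The control libraries were almost equal, whereas the treated libraries, with 7, 2 and 28 counts, differed by 12.1-fold. The log2 fold change of −3.57 ± 0.54 (edgeR adjusted p = 0.000146) was the lowest of the 9 genes. Without treated replicate 3 it was −4.94.

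**Figure D2:**
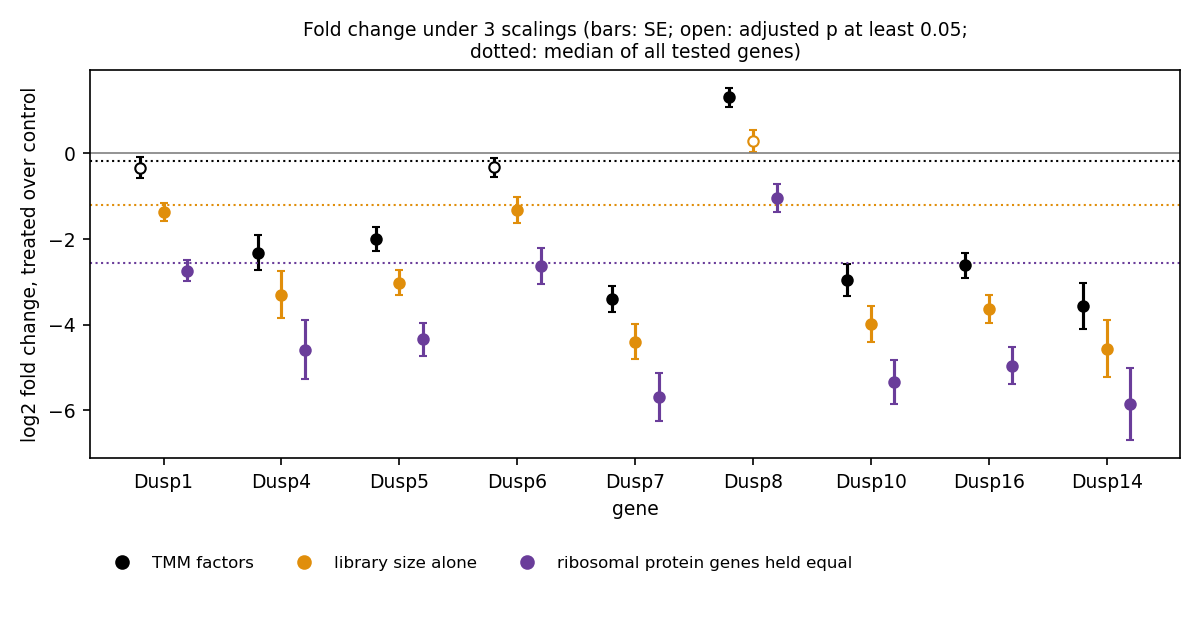
Log2 fold change, treated over control, of each phosphatase gene (bars, SE; open symbols, adjusted p of at least 0.05) under TMM factors, under library size alone and with the ribosomal protein genes held equal, and dotted lines at the median of all tested genes under each. Scaling moves all 9 genes down together: Dusp8 goes through 1.31, 0.29 and −1.04, while the 6 genes that fell stay below the dotted line of their own scaling.

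The promoter windows of 3 genes are shown. Dusp8 was taken because it was called higher under TMM scaling with groups that did not overlap. Dusp1 and Dusp5 were added for their motifs, after the motifs were seen. Sequences are from RefSeq (GRCm38.p6), 250 bases before to 50 bases after the RefSeq start, read 5′ to 3′ on the gene's strand. RefSeq windows were matched for 8 of the 9 genes. The RefSeq start need not be the outer end of the deposited gene. The Dusp8 window lies wholly inside the deposited gene span, which ends at 142095843. The windows of Dusp10 and Dusp14 also lie inside their deposited spans. Capitals mark the palindromic cyclic AMP response element TGACGTCA, bound by CREB and ATF proteins, and in Dusp5 the CArG box, bound by serum response factor. The windows are chr7:142095235-142095534 (minus strand) for Dusp8, chr17:26508423-26508722 (minus strand) for Dusp1 and chr19:53528895-53529194 (plus strand) for Dusp5.
Dusp8: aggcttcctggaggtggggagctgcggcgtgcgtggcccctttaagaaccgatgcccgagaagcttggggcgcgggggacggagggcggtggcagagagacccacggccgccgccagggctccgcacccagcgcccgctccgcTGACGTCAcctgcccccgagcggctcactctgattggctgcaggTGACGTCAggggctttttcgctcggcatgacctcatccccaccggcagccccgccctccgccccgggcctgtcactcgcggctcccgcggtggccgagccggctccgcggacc
Dusp1: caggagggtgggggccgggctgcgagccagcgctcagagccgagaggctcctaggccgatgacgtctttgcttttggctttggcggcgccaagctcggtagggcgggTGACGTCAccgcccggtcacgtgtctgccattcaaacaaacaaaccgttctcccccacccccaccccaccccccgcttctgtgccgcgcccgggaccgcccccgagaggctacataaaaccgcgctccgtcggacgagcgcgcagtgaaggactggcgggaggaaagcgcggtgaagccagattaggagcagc
Dusp5: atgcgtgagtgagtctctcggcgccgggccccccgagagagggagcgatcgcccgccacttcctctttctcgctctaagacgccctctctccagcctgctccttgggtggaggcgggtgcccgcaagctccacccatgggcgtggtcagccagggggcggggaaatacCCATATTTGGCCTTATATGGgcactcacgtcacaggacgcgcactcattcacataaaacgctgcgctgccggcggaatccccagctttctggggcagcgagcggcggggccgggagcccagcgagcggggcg
In the Dusp8 window TGACGTCA occurred 2 times, at −107 and −63 from the RefSeq start, and in the Dusp1 window 1 time, at −143. Over 32851 promoter windows of the same length, searched on both strands, 1.79% held it at least once and 0.04% held 2 or more. The Dusp5 window held 2 CArG boxes, at −82 and −72, directly one after the other; 1.63% of all windows held at least 1 and 0.018% held 2 or more. The AP-1 site TGANTCA was in 0 of the 8 windows and in 7.81% of all windows, and TATAAA was in 0 of the 8 and in 13.6% of all. The GC box GGGCGG was in 7 of the 8 windows and in 35.7% of all. The 8 windows were 57.3% to 78.7% G and C, each above the median of 52.7% over all windows. The part of base content in these motif counts was not tested. The core TGACG, which lies inside the palindrome, was in 4 of the 8 and in 20.8% of all. The NF-kB motif was in 2 of the 8, those of Dusp5 and Dusp16, and in 14.0% of all. The E-box CACGTG was in 1 of the 8 and in 7.15% of all. Dusp1 and Dusp8, the genes with the palindrome, were an uncalled gene and the riser under TMM scaling, and a match in a window is a description only.

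The 3′ untranslated regions were read for ATTTA, the core of the AU-rich elements through which proteins such as Zfp36 bring mRNAs to decay. The richest 25-base stretches of 4 genes are shown because each holds overlapping copies, read 5′ to 3′ from GENCODE M21 transcripts, with ATTTA in capitals.
Dusp1: atgggagctggtccttATTTATTTA
Dusp8: aatatttcgattttttATTTATTTA
Dusp10: aaaaATTTATTTAaaaaatattttt
Dusp16: taagatgtaATTTATTTAagaatga
ATTTA occurred in 7 of the 9 genes, against 68.8% of 11399 tested protein-coding genes with an annotated 3′ untranslated region. Dusp8 had 5 copies in 2370 bases and Dusp1 had 4 in 690 bases, a density that 4.19% of genes reached. The longer motif TTATTTATT was found only in Dusp1 and Dusp8 among the 9, and in 8.16% of all genes. Dusp7 and Dusp14, with the lowest log2 fold changes, had 0 copies of ATTTA in 1778 and 576 bases. Under TMM scaling Dusp1 and Dusp8 were not among the genes that fell. Other members went the other way. Dusp10 and Dusp16 held 3 copies each, in 1113 and 2416 bases, and had log2 fold changes of −2.97 and −2.62. Dusp6, which was not called, held 1 copy in 1190 bases. The part of the motif in these fold changes was not tested. Over all genes the median log2 fold change was −0.92 with TTATTTATT (930 genes) and −0.29 without it (10469 genes). Fold changes also ran down with gene length, for which this split was not adjusted.

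Because scaling decides the direction of Dusp8, the 9 genes were also compared with each other inside each library. The count per kilobase of each gene was given as a share of the sum over the 9 genes, a measure that no scaling factor alters. Dusp6 made up 39.4%, 46.2% and 44.5% of the sum in treated libraries, against 20.4%, 21.2% and 20.01% in control libraries. Dusp8 made up 17.9%, 24.4% and 16.1% in treated libraries, against 2.92%, 2.68% and 3.00% in control libraries, a 6.81-fold difference of the means. Dusp1 was 15.3%, 11.9% and 7.03% in treated libraries, against 5.33%, 4.91% and 4.90% in control libraries. These 3 genes had the higher shares in every treated library. A share of the sum also rises where a gene falls less than the others. The log2 fold changes of Dusp1 and Dusp6 were below 0 in all 21 alternatives, at most −0.167 and −0.152.

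The other 6 genes had lower shares in every treated library. Dusp7 made up 5.58%, 5.89% and 7.89% in treated libraries, against 27.5%, 25.7% and 27.6% in control libraries. Dusp4 made up 12.3%, 5.33% and 15.3% in treated libraries, against 21.96%, 22.2% and 22.2% in control libraries. The mean share of Dusp14 was 1.75% in treated cells and 9.43% in control cells, and that of Dusp10 was 1.81% in treated cells and 5.33% in control cells. The smallest differences were those of Dusp5, with 3.85% in treated cells and 5.68% in control cells, and Dusp16, with 0.887% in treated cells and 2.05% in control cells. For each of the 9 genes the exact two-sided permutation test gave p = 0.1 (0.1 after Benjamini-Hochberg adjustment over 9), the smallest that 3 against 3 can give, and shares of 1 sum are not independent.

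**Figure D3:**
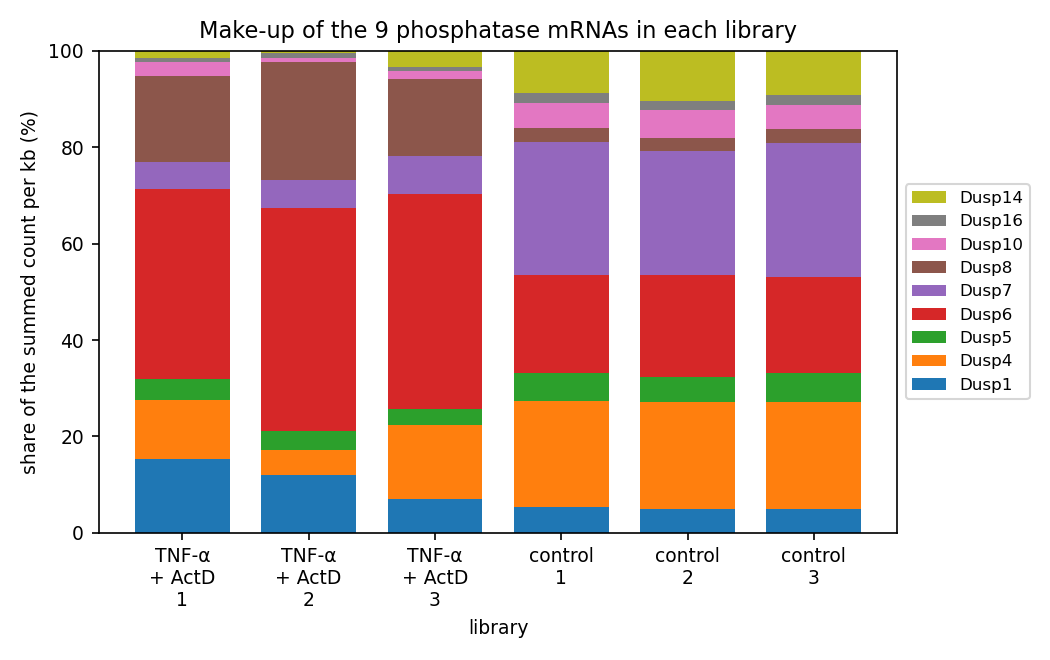
Share (%) of the summed count per kilobase of the 9 phosphatase genes held by each gene, in each of the 3 treated libraries and then the 3 control libraries. Dusp6, Dusp8 and Dusp1 fill most of the treated columns, while Dusp7, Dusp4 and Dusp6 fill most of the control columns.

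The order of levels per length changed accordingly. In treated cells Dusp6 led with 10.9 ± 3.54 RPKM, above every value of the next gene, Dusp8, with 4.71 ± 0.88 RPKM (SD, n = 3). Dusp4 (2.91 ± 2.03 RPKM), Dusp1 (2.66 ± 0.45 RPKM) and Dusp7 (1.67 ± 0.84 RPKM) came next, and each overlapped its neighbour above. Dusp5 had 0.940 ± 0.18 RPKM, and the last 3 places were held by Dusp14, Dusp10 and Dusp16 at 0.503, 0.445 and 0.219 RPKM, each overlapping the gene before it.

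In control cells Dusp7 led with 17.9 ± 2.21 RPKM, Dusp4 followed with 14.6 ± 1.23 RPKM and Dusp6 with 13.6 ± 0.85 RPKM, neighbours that overlapped. Dusp14 had 6.21 ± 0.03 RPKM, apart from both neighbours. Dusp5 (3.78 RPKM), Dusp10 (3.51 RPKM) and Dusp1 (3.35 RPKM) overlapped in turn, and Dusp8 (1.90 RPKM) and Dusp16 (1.36 RPKM) came last, without overlap between them. The top gene stood 49.5-fold over the bottom one in treated cells and 13.2-fold in control cells. Dusp8 was thus eighth of the 9 genes in control cells and the second in treated cells.

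Fold changes of all genes ran down with gene length, so each phosphatase gene was also set against the trend at its own length. Dusp14 lay 4.17 log2 units under the trend (−4.17), Dusp7 −3.32, Dusp10 −3.02, Dusp4 −2.52, Dusp5 −2.34 and Dusp16 −1.64. Dusp16, with the longest deposited length (7798 bases), lost the most of its fall in this way. Dusp1 (−0.56) and Dusp6 (−0.33) stayed near the trend, and Dusp8 lay 1.86 above it. With the trend as an offset in the fit, Dusp8 was still called higher and the same 6 genes lower.

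**Figure D4:**
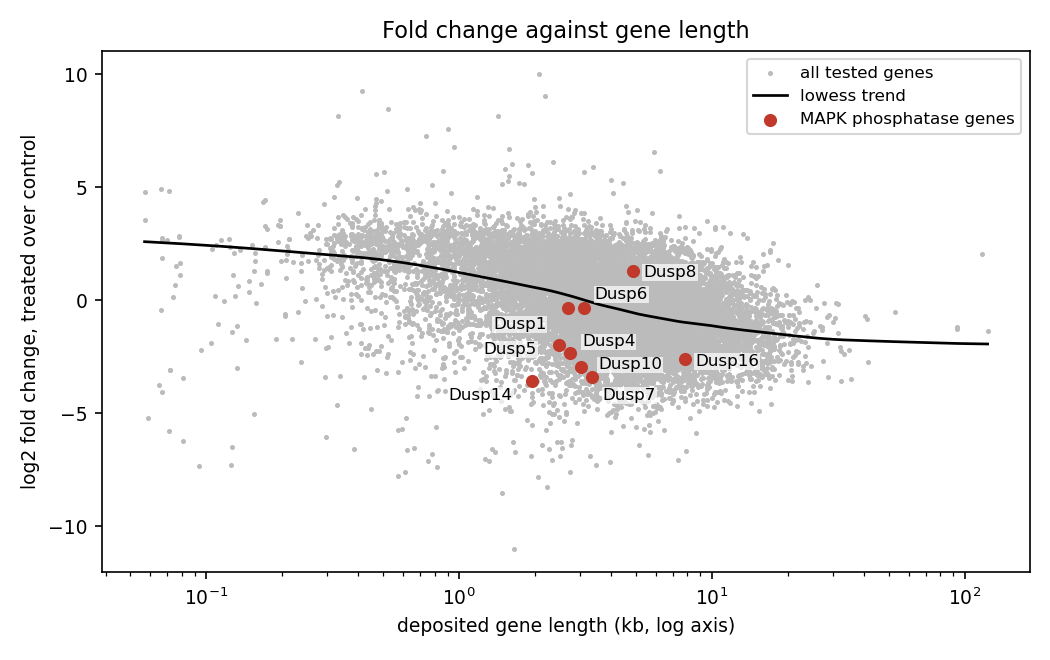
Log2 fold change, treated over control (TMM), against deposited gene length in kilobases (log axis) for all 13290 tested genes (grey), with the lowess trend (black) and the 9 phosphatase genes (red). Dusp8 lies above the trend, Dusp1 and Dusp6 just under it and the other 6 well under it.

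The genes whose pattern was nearest to that of Dusp8 and Dusp14, the highest and the lowest of the called genes, were found by the Euclidean distance of log2 CPM, centred on the control mean, over the 6 libraries and 10885 protein-coding genes. Nearest to Dusp8 were Jak3 (distance 0.145, log2 fold change 1.31), Grik5 (0.196 and 1.34) and Idua (0.238 and 1.40), which encode a cytokine receptor kinase, a kainate receptor subunit and a lysosomal enzyme. These rises, like that of Dusp8, hold for TMM scaling, as each gene was lower with ribosomal protein genes held equal. Nearest to Dusp14 were Dffb (distance 0.547, log2 fold change −3.77), Fam120c (0.676 and −3.41) and Taf4b (0.907 and −3.43). Dffb encodes the nuclease that cuts DNA between nucleosomes in apoptosis, and Taf4b a subunit of TFIID. Without treated replicate 3 the values of Dffb, Fam120c and Taf4b were −5.49, −5.52 and −4.32. All 6 genes were picked for their likeness over these same libraries, so their shared pattern is a description only.

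In the rest of the family, 13 of 18 listed genes were tested, of which 3 were called higher and 5 lower, with a median log2 fold change of −0.65; over all tested genes 34.6% were higher and 40.2% lower, and these shares are the background for each list that follows. With the gene length offset 3 of this list were lower, and without the filter 5 were higher. Dusp28 was higher, at 6.73 ± 3.86 CPM in treated cells and 1.28 ± 0.48 CPM in control cells (SD, n = 3 each; log2 fold change 2.38, or 1.76 without treated replicate 1; edgeR adjusted p = 0.000792), but its log2 fold change was −0.077 with ribosomal protein genes held equal. Dusp15 was higher under TMM scaling (1.97 ± 0.72 CPM in treated cells and 0.637 ± 0.107 CPM in control cells), was not called by library size alone or without control replicate 3, and was at −0.74 with ribosomal protein genes held equal. Dusp18, a phosphatase found at mitochondria, fell by 1.62 on the log2 scale. Dusp2, a nuclear phosphatase of ERK known from activated immune cells, fell to 2.27 ± 0.41 CPM in treated cells, against 6.99 ± 0.46 CPM in control cells (log2 fold change −1.62). Dusp9, named after its values were seen because it is the third cytoplasmic ERK phosphatase, had 35.6, 30.1 and 32.9 CPM in treated libraries, against 63.6, 40.1 and 50.1 CPM in control libraries. Its log2 fold change was −0.64 ± 0.20 (edgeR adjusted p = 0.0113), a call lost on log2(FPKM + 1) without a filter. At 12.1 RPKM in treated cells and 18.8 RPKM in control cells its mean lay above that of each of the 9 genes, by less than the spread of the leading gene.

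Of 17 MAP kinases and MAP kinase kinases, the enzymes upstream of or acted on by these phosphatases, 16 were tested, 6 were called higher and 7 lower, with a median of −0.03. Those shares are close to the ones over all tested genes. Mapk3, encoding ERK1, rose to 286 ± 35.9 CPM in treated cells, against 36.4 ± 6.50 CPM in control cells (log2 fold change 2.97; edgeR adjusted p = 4.77e-07). Mapk13, encoding p38δ, was higher under TMM scaling (2.51) and was not called with ribosomal protein genes held equal (0.10). Map2k1, encoding the ERK kinase MEK1, fell to 13.3 ± 1.44 CPM in treated cells, against 89.4 ± 8.08 CPM in control cells, and Mapk14, encoding p38α, fell to 13.7 ± 5.05 CPM, against 78.2 ± 5.56 CPM in control cells.

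Other inhibitors of the pathway were tested for 9 of 13 listed genes, with 2 called higher, 6 lower and a median of −2.19. Spred2, which blocks RAS and RAF signalling, fell to 4.27 ± 0.99 CPM in treated cells, against 56.3 ± 4.80 CPM in control cells (log2 fold change −3.72). Ppm1d, encoding a phosphatase induced by p53 that acts on p38, fell by 3.43 on the log2 scale. Spry4 (0.85) and Spred3 (0.70) were called higher with TMM factors, but turned to −0.17 and −0.34 by library size alone and to −1.50 and −1.70 with ribosomal protein genes held equal. Spred3 also lost its call with the replicate block, without the filter, and when any library other than treated replicate 3 was left out.

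Of 11 genes known as outputs of ERK signalling 10 were tested, 5 were called higher and 4 lower, and the median was 0.52. Fos, the immediate-early transcription factor, had 20.3 ± 4.56 CPM in treated cells and 0.285 ± 0.085 CPM in control cells (log2 fold change 6.13; edgeR adjusted p = 3.34e-07), and Phlda1 rose by 3.18. Etv5 and Fosl1, also ERK outputs, fell by 2.60 and 2.24. Of 12 transcription factors linked to these genes, 3 were called higher and 6 lower, with a median of −0.48; with the gene length offset 3 were lower, and with upper-quartile factors 5 were higher. Jun had 304 ± 55.5 CPM in treated cells and 52.1 ± 5.72 CPM in control cells (log2 fold change 2.55), but was not called with ribosomal protein genes held equal (0.20), and Elk4 (0.62) turned to −0.41 by library size alone and to −1.76 with those genes held equal, and was not called without the filter. Ets1 fell by 2.67 and Nr3c1, the glucocorticoid receptor that induces Dusp1, fell by 2.66.

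The 8 proteins that bind AU-rich mRNA were all tested, and 2 were called higher and 4 lower, with a median of −0.36. Of the 4, Elavl1 (edgeR adjusted p = 0.0498) and Hnrnpd (edgeR adjusted p = 0.0429), named after their values were seen, lay near the threshold, and 2 genes were lower with RLE factors, with DESeq2, with the replicate block and without any 1 control library. The gene length offset gave 6 higher and 2 lower, which turned the balance of this list. Zfp36, encoding tristetraprolin, which brings AU-rich mRNAs to decay, rose to 90.8 ± 14.6 CPM in treated cells, against 8.40 ± 1.89 CPM in control cells (log2 fold change 3.43; edgeR adjusted p = 5.00e-07). Zfp36l1 was higher under TMM scaling (1.31), not called by library size alone and lower with ribosomal protein genes held equal (−1.06). Its relative Zfp36l2 fell by 2.33, and Khsrp, another decay factor, fell by 1.67.

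**Figure D5:**
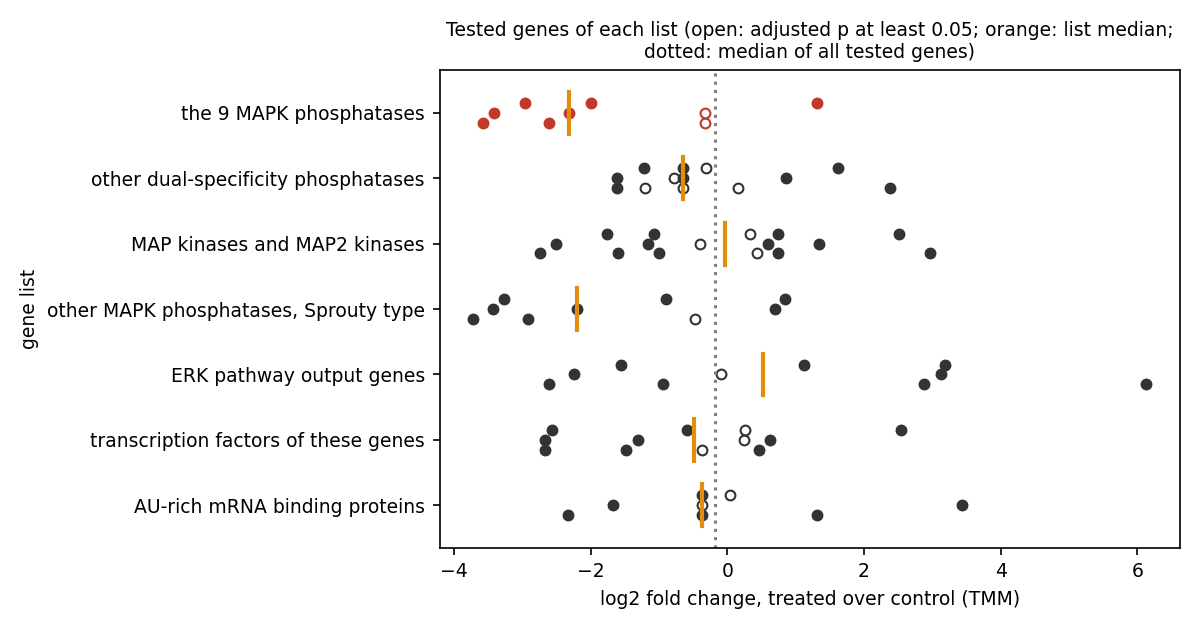
Log2 fold change, treated over control (TMM), of each tested gene in the phosphatase set (red) and in 6 related gene lists (open, adjusted p of at least 0.05), with an orange bar at each list's median and a dotted line at the median of all tested genes, −0.18. The phosphatases (−2.32) and the other pathway inhibitors (−2.19) have the lowest medians, and ERK output genes (0.52) the only one above 0; individual rises such as Dusp8 depend on scaling.

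The cells carried fibroblast transcripts, of which Col1a1, Col1a2, Vim and Sparc were abundant, while Dcn and Lum were at 0 in all 6 libraries. Of 13 fibroblast markers 9 were tested, and under TMM scaling 8 were called higher and 1 lower (34.6% and 40.2% of all tested genes). The 13 markers summed to 21180 to 24653 CPM in treated libraries and 6743 to 8719 CPM in control libraries. All marker sums here are TMM-scaled, so their differences between the groups hold for that scaling only. The macrophage list summed to 43.9 to 55.4 CPM in treated libraries and 3.88 to 4.80 CPM in control libraries. That sum came mostly from Cd68 and Lyz2; Itgam was at 0 in all libraries, and Ptprc and Adgre1 had at most 1 count in any library. The 5 lymphocyte markers summed to 2.48 to 4.06 CPM in treated libraries and 0.327 to 0.435 CPM in control libraries, and epithelial and endothelial markers summed to at most 1.59 CPM in any library. The part of these transcripts in the phosphatase values was not tested.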

How the data were processed

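RNA libraries of L929 cells were sequenced and the authors deposited 2 gene tables. The first holds whole-number counts, the second FPKM values, both per the file headers. The submitters' processing notes list RSEM 1.3.1, HISAT2 2.1.0, DESeq2 1.24.0, mm10 and GRCm38 with neither role nor order. Strand use in counting was not given in the sources used here. The authors' deposited FPKM equals the count over the gene length the authors deposited (in bases, a value of type other) times 1 constant per library, 1.22 to 1.64 of that by library total in treated and 0.635 to 0.719 in control libraries. Control columns carry the genotype name and were matched by number. Groups follow the sample titles and treatment labels, since control samples also carry the treatment protocol text.

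Counts were filtered with filterByExpr, scaled by TMM and tested over all genes with edgeR 4.0.16 (quasi-likelihood, robust; R 4.3.3) at a Benjamini-Hochberg adjusted p of 0.05. Standard errors are log2 fold changes over the root of F. RPKM is TMM-scaled CPM per kilobase. The length trend is a lowess fit with span 0.3. Members and lists were chosen with earlier results of these data known. All 9 members are named, and of each list at most 2 rises and 2 falls (the largest called ones averaging 1 CPM or more); Dusp9, Elavl1, Hnrnpd, the further promoters and the marker genes were named after their values were seen. Sequences are from RefSeq and GENCODE M21, where 8 of the 9 members have the deposited coordinates. Alternatives were other scalings and filters, DESeq2 1.42.0, limma 3.58.1 (voom, or log2(FPKM + 1) and log2(FPKM + 0.1)), a replicate block, a length offset, protein-coding genes and leaving out each library. On simulated data (12968 genes) edgeR recovered 46 of 99 genes changed by 1 and 85 of 100 changed by 2 on the log2 scale, with 13 calls among 12769 unchanged genes; scaling under a large shift was not simulated.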

Additional observations from a re-analysis of the deposited data

How the results depend on the processing

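Over 21 alternatives, Dusp4, Dusp5, Dusp7, Dusp10 and Dusp14 were called lower in each, and Dusp16 in the 19 that tested it; it failed the filter of a mean FPKM of at least 1. Dusp8 was called higher in 19, and reversed to −1.04 with ribosomal protein genes held equal. Scaling by library size alone gave 2276 genes higher, 0 members higher (0 also at an unadjusted p under 0.05), 8 members lower and 9 list genes higher. DESeq2, with its own scaling, and limma-voom, with the same TMM factors as the main fit, each called 1 member higher. Holding ribosomal protein genes equal gave 247 genes higher and 10944 lower, 0 members higher (0 unadjusted) and 9 lower, and 4 list genes higher and 58 lower, against 21 and 32 with TMM. It turned Dusp28 to −0.077, Dusp15 to −0.74, Spry4 to −1.50, Spred3 to −1.70, Elk4 to −1.76, Zfp36l1 to −1.06, Jak3 to −1.03, Grik5 to −0.998 and Idua to −0.97. Library size alone turned Spry4 to −0.17, Spred3 to −0.34 and Elk4 to −0.41. Dusp6 was called lower without the filter (−0.48), without treated replicate 3 and under those 2 scalings. Leaving out each library gave 1 member higher and 6 to 7 lower, and 18 to 23 list genes higher and 28 to 35 lower. With counts not divided by length, share differences (treated minus control, percentage points) were 19.2 for Dusp6, −23.0 for Dusp7, 23.4 for Dusp8, −3.16 for Dusp16 and −4.95 for Dusp14, against 22.8, −20.5, 16.6, −1.16 and −7.68 per kilobase; without Dusp1 in the sum Dusp6 had 27.3. Same-numbered libraries deviated together at r = 0.22, −0.14 and 0.029, and differently numbered ones at −0.38 to 0.38. With 3 libraries per group these values are tied to each other, so they show no pairing by number but cannot exclude it. With the replicate block 4450 genes were higher and 5411 lower, and members stayed at 1 and 6. Treated levels of Dusp14, Dusp10 and Dusp16 rest on 2 to 29 counts, which limits their precision.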
